A study of Mus musculus with 9 samples.

Results

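The 35 genes described here encode enzymes, transporters and cofactors that build, modify and break down the ceramides and related barrier lipids of the epidermis. They were chosen by symbol as known sphingolipid and barrier lipid genes, and all 35 were found among the 24532 genes of the table. Earlier results of these data were known when these genes were chosen. RNA was measured in cells labelled keratinocytes, which make up most of the epidermis, from skin of C57BL/6 mice. There were 3 libraries each from postnatal day 1, day 7 and day 14, and the column headers of the day 1 libraries read D0. The labels give no treatment, genotype or allele besides the strain, for any of the days. Cells were sorted as viable and negative for CD45.2, a surface protein of leukocytes, and the gate used no keratinocyte protein, so other skin cells without CD45.2 can be among them. Whether a day's libraries stem from different animals, litters or pools is not stated in the labels. The p-values below thus measure only how far these libraries spread, and that spread may be technical.

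Ceramides are sphingoid bases joined to a fatty acid through an amide bond. In the uppermost living layer of the epidermis, very long fatty acids are lengthened, hydroxylated at their far end and joined to linoleate, which gives acylceramides found almost only in this tissue. These are glucosylated, packed into lamellar granules, secreted, oxidised by lipoxygenases and partly bound to the protein envelope of the dead cornified cells, where they limit water loss. Inherited defects in many of these steps cause ichthyosis, a scaling skin disease, and several mouse knockouts die soon after birth from water loss.

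The 250 bases before the start of 6 members are shown first, because they span the range of promoter composition among genes that rose strongly and include a pair of catalytic subunits of the same enzyme that behaved differently. CpG dinucleotides, the sites of DNA methylation in mammals, are in capitals. Sequences are from RefSeq, build GRCm38.p6 (mm10), on the strand of the gene, 5′ to 3′, and each lies outside the annotated gene. Sptlc2 and Sptlc3 encode alternative catalytic subunits of serine palmitoyltransferase, Elovl4 the elongase of the longest fatty acids, Sgms2 a sphingomyelin synthase, Abca12 the lipid transporter of lamellar granules and Acer1 an alkaline ceramidase.
Sptlc2 (chr12:87388356-87388605, minus strand): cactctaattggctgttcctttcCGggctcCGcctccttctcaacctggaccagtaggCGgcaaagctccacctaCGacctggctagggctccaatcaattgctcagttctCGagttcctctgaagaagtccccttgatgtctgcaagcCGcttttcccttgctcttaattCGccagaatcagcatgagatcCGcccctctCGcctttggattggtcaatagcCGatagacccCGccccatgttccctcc
Sptlc3 (chr2:139493663-139493912, plus strand): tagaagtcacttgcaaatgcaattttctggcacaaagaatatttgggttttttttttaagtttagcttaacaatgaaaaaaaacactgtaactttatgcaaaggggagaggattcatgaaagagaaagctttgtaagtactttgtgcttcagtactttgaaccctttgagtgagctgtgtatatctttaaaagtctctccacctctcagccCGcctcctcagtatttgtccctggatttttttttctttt
Elovl4 (chr9:83806306-83806555, minus strand): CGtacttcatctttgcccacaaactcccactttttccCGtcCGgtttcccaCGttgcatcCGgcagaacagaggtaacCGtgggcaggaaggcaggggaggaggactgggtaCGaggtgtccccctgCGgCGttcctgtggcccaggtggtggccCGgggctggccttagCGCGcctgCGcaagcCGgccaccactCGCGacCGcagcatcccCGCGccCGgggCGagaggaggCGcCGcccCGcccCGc
Sgms2 (chr3:131491444-131491693, minus strand): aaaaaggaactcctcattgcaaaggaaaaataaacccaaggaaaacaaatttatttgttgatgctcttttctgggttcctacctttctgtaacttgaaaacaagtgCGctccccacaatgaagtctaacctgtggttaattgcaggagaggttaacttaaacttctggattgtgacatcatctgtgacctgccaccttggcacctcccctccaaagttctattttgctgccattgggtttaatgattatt
Abca12 (chr1:71414911-71415160, minus strand): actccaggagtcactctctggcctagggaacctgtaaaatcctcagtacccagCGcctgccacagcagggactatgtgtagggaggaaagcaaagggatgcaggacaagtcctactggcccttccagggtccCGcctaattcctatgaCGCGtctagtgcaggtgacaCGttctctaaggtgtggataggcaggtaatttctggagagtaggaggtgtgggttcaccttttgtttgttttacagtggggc
Acer1 (chr17:56982127-56982376, minus strand): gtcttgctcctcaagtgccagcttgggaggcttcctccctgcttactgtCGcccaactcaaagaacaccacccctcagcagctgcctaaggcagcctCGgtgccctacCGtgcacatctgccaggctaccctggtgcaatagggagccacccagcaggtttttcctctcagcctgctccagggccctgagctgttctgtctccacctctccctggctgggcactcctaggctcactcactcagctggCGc
The Sptlc2 stretch held 11 CpG dinucleotides and the Sptlc3 stretch 1. The Sgms2 stretch also held 1, the Acer1 stretch 4, the Abca12 stretch 5 and the Elovl4 stretch 25. Among these 6 genes, Sptlc2 differed by 0.18 on the log2 scale between days 1 and 14, and the other 5 differed by 1.41 or more.

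Libraries held 50670191 to 62970768 counts. Levels between libraries are given as CPM, counts scaled to the same effective library total (TMM scaling). Pearson's r of log CPM across genes was 0.986 to 0.991 between libraries of the same day and 0.885 to 0.957 between days, where genes are not independent replicates. The basal keratins Krt5 and Krt14 and the suprabasal keratins Krt1 and Krt10 were each at 3321 CPM or more in every library. Xist, the RNA of the inactive X chromosome, averaged 1352, 0 and 2534 CPM at days 1, 7 and 14, and the Y-linked gene Ddx3y averaged 41.8, 105 and 0 CPM. In day 1 libraries 4, 5 and 6, Xist was at 1553, 861 and 1642 CPM and Ddx3y at 40.7, 55.6 and 29. Each day 1 library thus held RNA of both sexes, in amounts that differed between libraries. Sex and day therefore cannot be told apart in these comparisons. In bulk samples such as these, fewer cells of a type and less RNA per cell cannot be told apart either.

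Most of the barrier lipid genes rose over the 2 weeks. Counts were tested with edgeR's quasi-likelihood test, with p-values adjusted over the 14507 genes tested by the Benjamini-Hochberg method, and an adjusted p under 0.05 was called a change. All 35 members passed the filter on low counts. Degs2 passed only through day 14, with 29 to 45 counts there, against 3 to 5 at day 1 and 5 to 14 at day 7. The filter thus favoured a rise for that gene, which is among the rises counted here. From day 1 to day 14, 28 of the 35 rose, 2 fell (Cers4 and Asah1) and 5 were not called. That is 80% higher and 5.71% lower, against 35.5% of all genes called higher, 38.4% called lower and 73.9% called in either direction. The median log2 change was 0.97 over the members and -0.046 over all genes tested. At least a 2-fold rise was called for 17 members, against 14.6% of all genes, and at least a 2-fold fall for 1, against 14.3%.

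**Figure D1:**
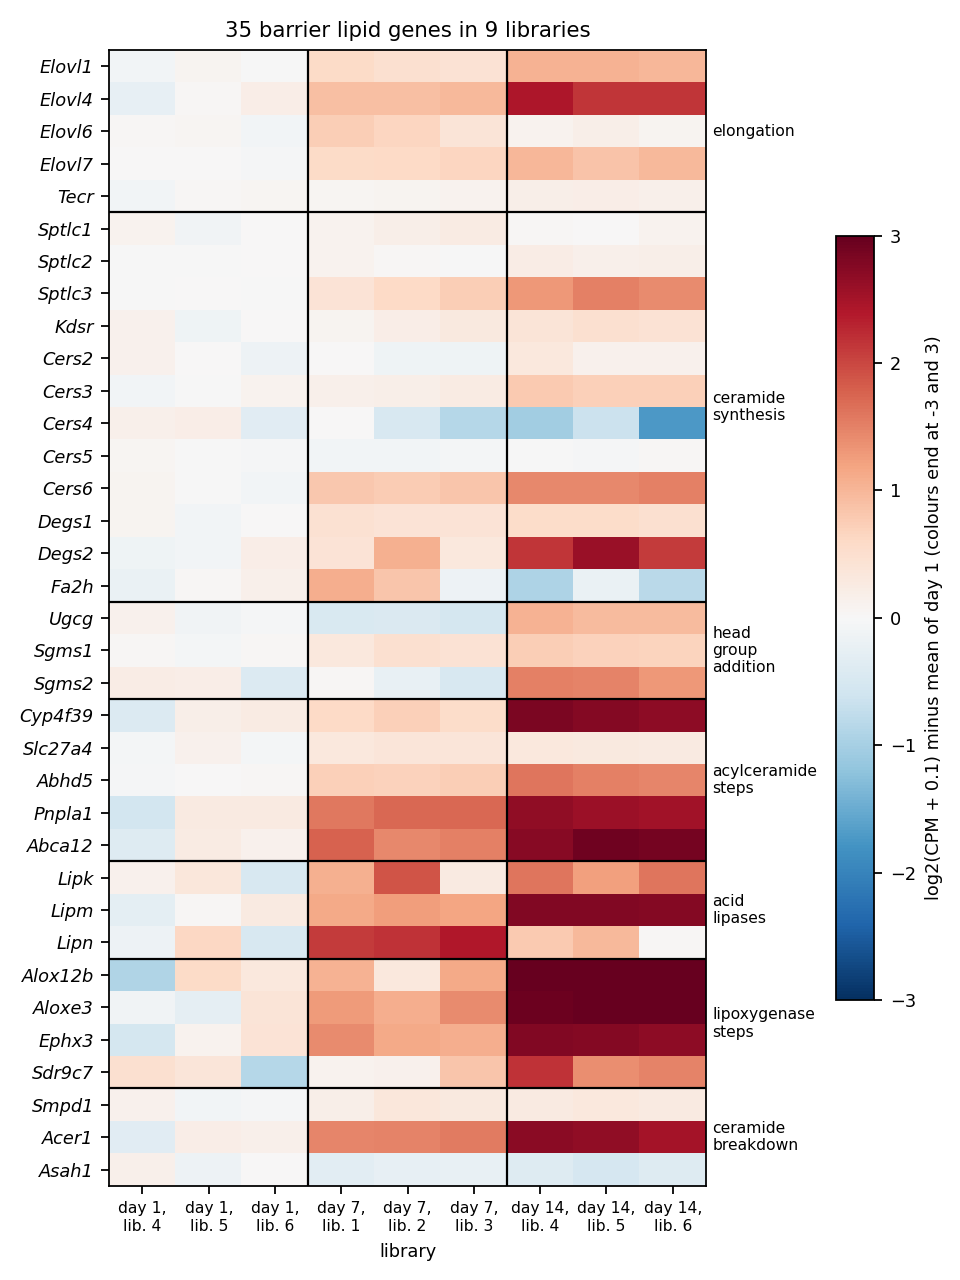
Level of each of the 35 genes (rows, grouped by role) in each of the 9 libraries (columns), as log2(CPM + 0.1) minus the mean of the 3 day 1 libraries; red is higher and blue lower than at day 1, and the colours end at -3 and 3, which some lipoxygenase genes exceed. The 28 genes that rose by day 14 appear red in the 3 rightmost columns, Cers4 and Asah1 appear blue, and Lipn and Elovl6 are darkest at day 7.

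Both weeks contributed to the rise. From day 1 to day 7, 23 of 35 members rose and 2 fell (Ugcg and Asah1), against 25.5% and 24.0% of all genes and 49.4% in either direction. The median change was 0.59 on the log2 scale over the members and -0.001 over all genes. From day 7 to day 14, 23 rose and 3 fell (Elovl6, Fa2h and Lipn), against 32.5% and 35.1% of all genes and 67.6% in either direction, with medians of 0.53 and -0.035. Rises of at least 2-fold were called for 8 members in the first week and 12 in the second, against 4.76% and 11.1% of all genes. No member fell at least 2-fold in the first week and 2 did in the second, against 8.29% and 7.75% of all genes. With a test against a 1.5-fold change, the rises numbered 10 in the first week and 14 in the second. Library totals alone as the scaling moved the median of all genes to -0.1, -0.21 and -0.319 for the first week, the second week and both weeks. With that scaling, 22 members rose and 5 fell over both weeks, and 19 rose and 8 fell in the second week, so the sign of small changes depends on the scaling.

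By their calls in the 2 weeks, 16 members rose in both, where 12.3% of all genes tested did. These were Elovl1, Elovl4, Elovl7, Sptlc3, Kdsr, Cers3, Cers6, Sgms1, Cyp4f39, Abhd5, Pnpla1, Abca12, Lipm, Aloxe3, Ephx3 and Acer1. Another 6 were not called in the first week and called higher in the second, against 14% of all genes. A further 5 were called higher in the first week and not called in the second, against 5.94%. Those calls do not show that the weeks differed, which was tested as the second step minus the first step. That difference passed for 12 of 35 members, against 51.8% of all genes: it was positive for 5 (Cers2, Cers3, Ugcg, Sgms2 and Cyp4f39), against 24.2%, and negative for 7 (Elovl6, Elovl7, Sptlc1, Degs1, Fa2h, Slc27a4 and Lipn), against 27.6%. Values of the members follow by role.

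**Figure D2:**
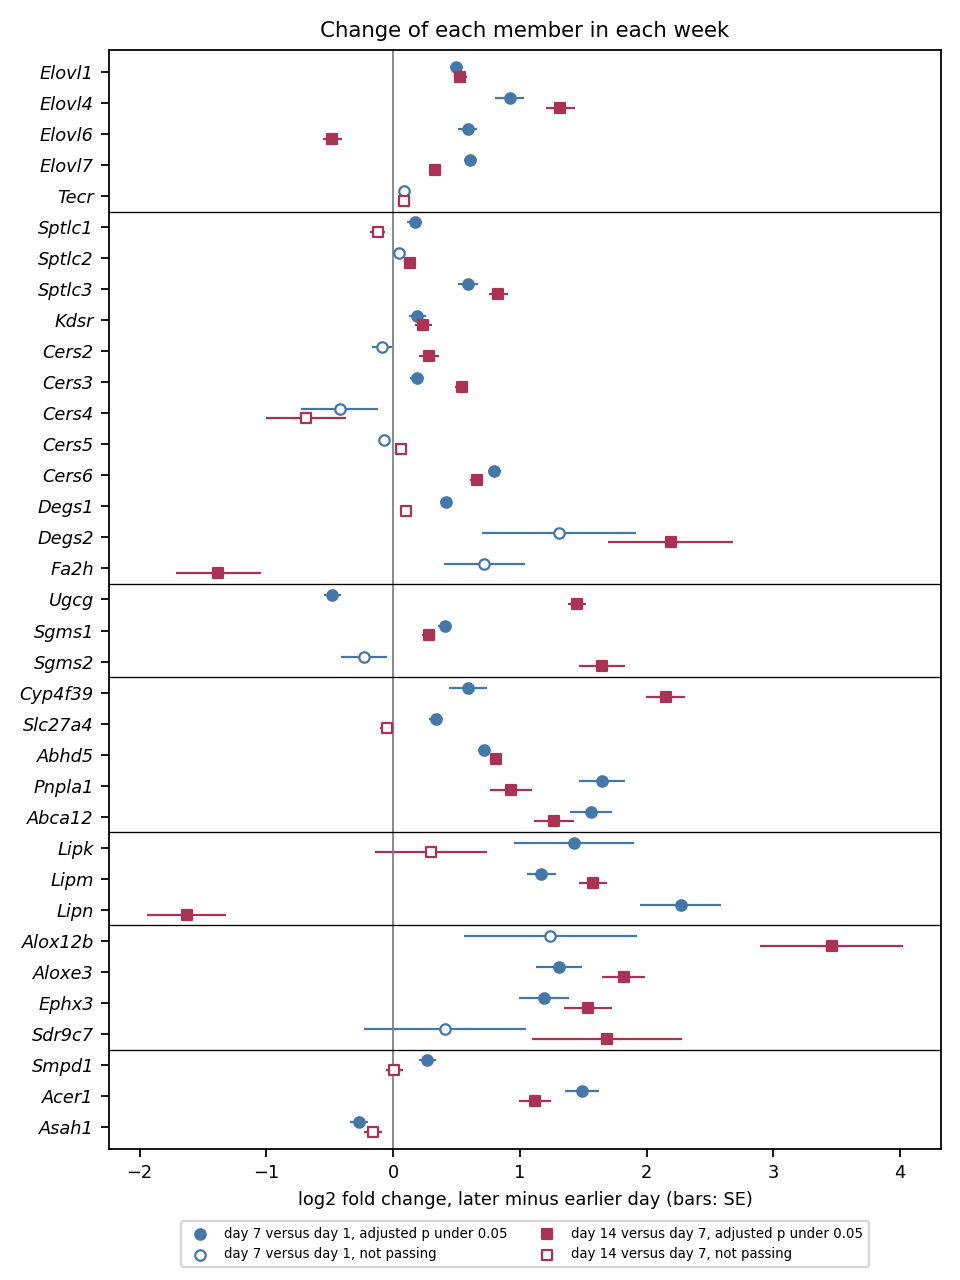
Log2 fold change of each of the 35 genes from day 1 to day 7 (blue circles) and from day 7 to day 14 (red squares), with the standard error as bars; filled symbols have an adjusted p under 0.05 in edgeR's quasi-likelihood test. Most symbols lie to the right of 0 in both weeks, while Lipn and Elovl6 lie right of 0 in the first week and left in the second, and Ugcg the reverse.

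The genes of fatty acid elongation rose for 4 of 5 members between days 1 and 14, against 35.5% of all genes. Their median was 0.94 on the log2 scale. Elovl4 (GRCm38.p6, chromosome 9, 83778692 to 83806305) makes the ultra-long chains that acylceramides need. It was at 31.9, 38.8 and 43.3 CPM at day 1, 70.9, 70.2 and 74.1 at day 7, and 202, 168 and 166 at day 14. The days did not overlap, and the gene rose by 0.92 ± 0.11 (SE) in the first week and 1.32 ± 0.11 in the second on the log2 scale (edgeR adjusted p = 0.000167 and 7.61e-06). The 2 weeks together gave a 4.71-fold rise, the largest of the elongation genes. Elovl1, which makes saturated very long chains, was at 53.7 to 60.2 CPM at day 1, 76.8 to 84.8 at day 7 and 113 to 118 at day 14. Its rises of 0.50 ± 0.05 and 0.53 ± 0.05 per week were nearly alike, and the test of their difference gave an edgeR adjusted p of 0.797. Elovl7 went from 36.1 ± 0.597 CPM (SD, n = 3) to 69.2 ± 3.8, with a smaller step in the second week (0.33 ± 0.05) than in the first (0.61 ± 0.05, edgeR adjusted p of the difference 0.0172). Without day 7 library 3 that difference no longer passed (adjusted p = 0.0675).

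Elovl6, which lengthens palmitate, turned at day 7. Its CPM was 53.6, 54.6 and 49.9 at day 1, 87.4, 82.2 and 68.9 at day 7, and 56.3, 59.2 and 55.8 at day 14. Every day 7 library was above every library of the other days. The rise of 0.59 ± 0.08 and the fall of 0.48 on the log2 scale both passed (edgeR adjusted p = 4.58e-05 and 0.00014), and the difference of 0.12 ± 0.08 between days 1 and 14 did not (adjusted p = 0.185). Tecr encodes the reductase of the last reaction of each elongation cycle, shared by all elongases, and had the highest TPM of the 35 genes at each day, 519 ± 18, 496 ± 12.8 and 499 ± 11.3. TPM here is a per-length level, the count divided by exon length and scaled to the same total in every library, without TMM scaling. Its CPM was 227, 247 and 250, then 253, 257 and 260, then 272, 278 and 269. The difference of 0.18 ± 0.05 between days 1 and 14 passed (edgeR adjusted p = 0.00346), but its sign turned with library totals alone as the scaling (-0.09).

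Among the 12 genes of ceramide synthesis itself, 8 rose, 1 fell and 3 were not called between days 1 and 14. Of all genes, 35.5% rose and 38.4% fell, and the median of the 12 was 0.31. Serine palmitoyltransferase condenses serine with an acyl-CoA, the first step of all sphingolipid synthesis, and joins Sptlc1 to a catalytic Sptlc2 or Sptlc3. Sptlc3 (chromosome 2, 139493913 to 139637061) was at 22.2, 22.7 and 22.3 CPM at day 1, 29.9, 33.8 and 37.2 at day 7, and 55.2, 63.6 and 59.9 at day 14. It rose 2.66-fold over the 2 weeks (edgeR adjusted p = 6.11e-09), with no overlap between days. Sptlc2 stayed between 49.9 and 58.5 CPM in all 9 libraries and Sptlc1 between 48.6 and 61.9. The call of Sptlc2 as higher in the second week (0.13 ± 0.04, edgeR adjusted p = 0.0217) did not survive leaving out library 2 or 3 of day 7, or library 4 of day 14 (adjusted p = 0.0835, 0.142 and 0.0857). The call of Sptlc1 as higher in the first week (0.17 ± 0.06, adjusted p = 0.0314) did not survive leaving out library 5 or 6 of day 1, or library 2 or 3 of day 7 (adjusted p = 0.0658 to 0.126). Its smaller second step (difference -0.29 ± 0.10, adjusted p = 0.031) did not survive leaving out library 2 or 3 of day 7, or library 5 of day 14 (adjusted p = 0.0547 to 0.139). Over both weeks, the small positive values of Sptlc1 and Sptlc2 (0.05 ± 0.06 and 0.18 ± 0.04) turned negative with library totals alone (-0.22 and -0.09). On the per-length TPM scale, Sptlc3 went from 22.2% to 41.7% of the summed level of the 3 subunits, and Sptlc1 from 56.5% to 41.3%.

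Ceramide synthases attach the fatty acid, and each isozyme prefers certain chain lengths. Cers6, which prefers palmitate, was at 81.1, 75.7 and 72.6 CPM at day 1, 134, 131 and 136 at day 7, and 208, 208 and 219 at day 14. It rose 2.77-fold (edgeR adjusted p = 9.88e-11). Cers3, the synthase of ultra-long ceramides, went from 52.1 ± 3.62 CPM to 59.5 ± 1.73 and 86.5 ± 2.64. Its second step was larger than its first (0.54 ± 0.05 against 0.19 ± 0.05 on the log2 scale, edgeR adjusted p of the difference 0.00898). Cers4 was the only member that fell by more than 2-fold over the 2 weeks, from 8.36, 8.7 and 5.94 CPM at day 1 to 3.63, 4.81 and 2.21 at day 14, with 7.67, 5.41 and 4.12 at day 7. The fall of 1.11 on the log2 scale passed (edgeR adjusted p = 0.0107), while neither week alone did. Of 12 hair follicle markers, 5 fell, 4 rose and 3 were not called between days 1 and 14. Over all genes 38.4% fell and 35.5% rose, and the median of these markers was -0.15. Their summed TPM, most of it from Krt17 (named here after its values were seen), went from a range of 2521 to 2664 at day 1 to 1575 to 2019 at day 7 and 1019 to 1346 at day 14. None of these markers was at 0 in all libraries of a day, and their part in the fall of Cers4 was not tested.

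Cers5 lay between 49 and 53.9 CPM in all libraries and passed no test, with -0.01 ± 0.04 between days 1 and 14. Cers2, the synthase of very long chains, went from 30.4 ± 2.9 CPM to 28.7 ± 1.73 and 34.7 ± 2.41. Its rise in the second week (0.28 ± 0.08, edgeR adjusted p = 0.00823) kept its call without each library in turn. That over both weeks did not: an adjusted p of 0.0446 became 0.0519 to 0.223 without 7 of the 9 libraries, all but day 1 library 4 and day 7 library 1. The value of 0.19 ± 0.08 was 0.11 without day 1 library 6 and 0.12 without day 14 library 4, and it turned negative with library totals alone (-0.08). Its larger second step (difference 0.36 ± 0.14, adjusted p = 0.044) did not survive leaving out library 4 or 5 of day 1, library 2 or 3 of day 7, or library 4 or 5 of day 14 (adjusted p = 0.0536 to 0.172). Of the summed TPM of the 5 synthases, Cers5 held the largest share at day 1 (30.1% ± 0.292) and Cers6 at day 14 (33.2% ± 1.1), where Cers3 held 29.4% ± 0.621 and Cers5 19.6% ± 0.518. The share of Cers6 had been 18.3% ± 0.558 at day 1, and no day overlapped another.

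**Figure D3:**
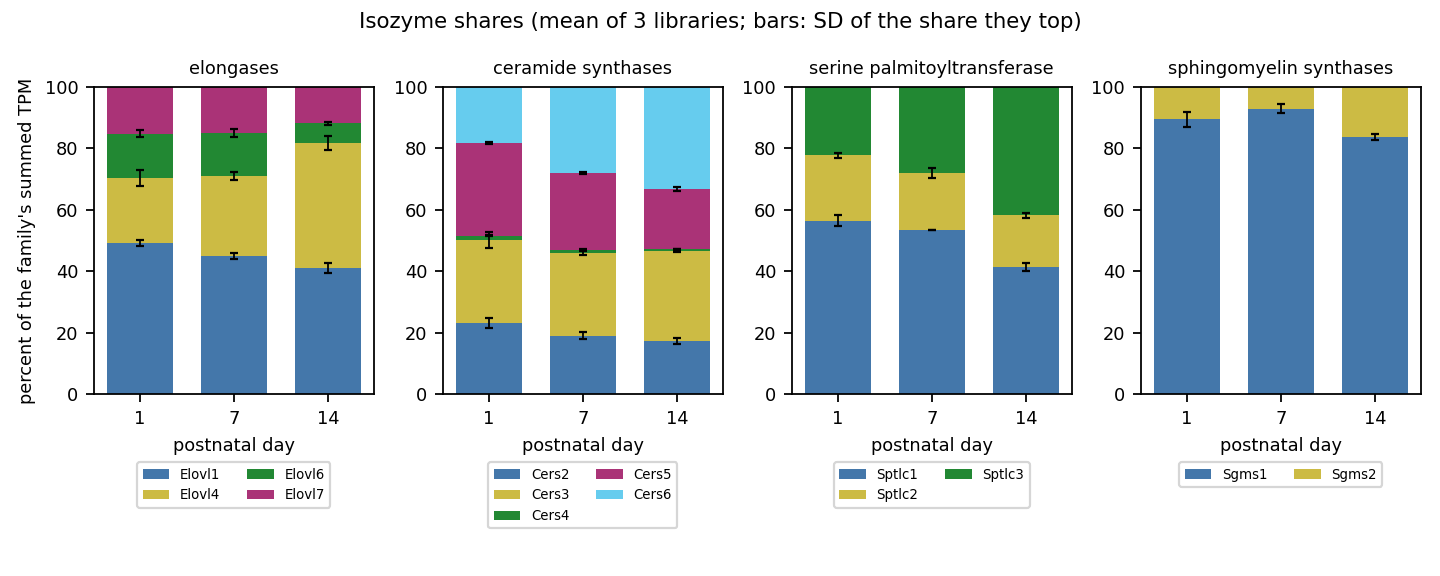
Share of each isozyme or subunit in the summed TPM of its family (percent, mean of 3 libraries per day, bars SD) for elongases, ceramide synthases, serine palmitoyltransferase subunits and sphingomyelin synthases. Families hold only the genes among the 35. Elovl4 grew from 21.2% to 40.8% of the 4 elongases, Cers6 from 18.3% to 33.2% of the 5 ceramide synthases and Sptlc3 from 22.2% to 41.7% of the 3 subunits between days 1 and 14.

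Degs1 introduces the double bond that makes dihydroceramide into ceramide, and it had the second highest TPM of the 35 genes at each day. It was at 111, 98.8 and 106 CPM at day 1, 144, 140 and 139 at day 7, and 153, 153 and 147 at day 14. It rose in the first week (0.42 ± 0.05, edgeR adjusted p = 1.8e-05) and its second step was smaller (0.10 ± 0.05, adjusted p of the difference 0.00663). Degs2, which hydroxylates ceramides to phytoceramides, was scarce, with 3 to 5 counts per library at day 1, 5 to 14 at day 7 and 29 to 45 at day 14. This gene passed the filter on low counts only through day 14. Its CPM rose from 0.058 ± 0.0203 to 0.675 ± 0.151 over the 2 weeks (log2 3.50 ± 0.55, edgeR adjusted p = 9.55e-05), and at day 14 it gave 0.426% of the summed TPM of both desaturases. An exon of Degs2 shares 278 bases, 10.8% of the exon length over all its annotated transcripts, with Evl on the opposite strand. Evl moved the other way, from 85 ± 1.8 CPM at day 1 to 31 ± 1.14 and 10.5 ± 1.04 at the later days.

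Fa2h, which hydroxylates the fatty acid before it enters ceramide, was at 1.26, 1.51 and 1.64 CPM at day 1, 3.24, 2.69 and 1.32 at day 7, and 0.719, 1.26 and 0.796 at day 14. Day 7 library 3 lay with the day 1 libraries. The second step of -1.38 ± 0.33 on the log2 scale passed (edgeR adjusted p = 0.00288), and the weeks differed (adjusted p = 0.00676, and 0.0525 without day 7 library 1). Kdsr, the reductase that follows serine palmitoyltransferase, went from 38.7 ± 3.25 CPM to 44.2 ± 3.07 and 52.2 ± 1.65. Its first-week call (0.19 ± 0.07, edgeR adjusted p = 0.0339) did not survive leaving out library 5 or 6 of day 1, or library 2 or 3 of day 7 (adjusted p = 0.0725 to 0.144), and its second-week call was kept without each library in turn.

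All 3 enzymes that add a head group to ceramide were higher at day 14 than at day 1, as were 35.5% of all genes. For 2 of these 3 (Ugcg and Sgms2) the second step was the larger, against 24.2% of all genes. Ugcg, the glucosylceramide synthase that prepares ceramides for lamellar granules, fell first and then rose. It was at 25.1, 21.3 and 22.4 CPM at day 1, 16.6, 16.8 and 15.8 at day 7, and 47, 44.1 and 44 at day 14, with no overlap between days. The first step of -0.48 ± 0.07 and the second of 1.45 ± 0.07 on the log2 scale both passed (edgeR adjusted p = 0.000104 and 4.31e-09). It was the only member called lower and then higher, as were 6.23% of all genes. Sgms2, the sphingomyelin synthase of the cell surface, was at 9.11, 8.9 and 5.81 CPM at day 1, 8.02, 6.65 and 5.57 at day 7, and 22.5, 22.1 and 19.3 at day 14. Days 1 and 7 overlapped, and the second step exceeded the first by 1.89 ± 0.32 (edgeR adjusted p = 0.000922). Sgms1, the Golgi isozyme with the highest TPM of this role, was at 54.5, 51 and 54.4 CPM, then 65.8, 74.8 and 72.4, then 88.4, 86.4 and 84.4. It rose in both weeks (0.41 ± 0.05 and 0.28 ± 0.05, adjusted p = 4.88e-05 and 0.000519) and held 83.7% of the summed TPM of both synthases at day 14.

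All 5 genes of the acylceramide steps rose over the 2 weeks, against 35.5% of all genes, with a median of 2.58 on the log2 scale. Abca12 (chromosome 1, 71243090 to 71414910) moves glucosylceramides into lamellar granules, and its loss causes harlequin ichthyosis. It was at 13.4, 20.8 and 19.2 CPM at day 1, 59.5, 47.4 and 49.8 at day 7, and 117, 134 and 128 at day 14. The days did not overlap, and the rise was 7.11-fold (edgeR adjusted p = 1.64e-06). Cyp4f39 (chromosome 17, 32452697 to 32493320), which hydroxylates the far end of ultra-long fatty acids, was at 8.03, 12.2 and 12.8 CPM, then 16.2, 17.7 and 15.8, then 76.8, 73.8 and 69.5. It rose 1.51-fold in the first week and 4.42-fold in the second, and the steps differed by 1.55 ± 0.26 on the log2 scale (edgeR adjusted p = 0.00127). The pair thus reached similar overall rises, Abca12 in steps that did not differ by the test (adjusted p = 0.427) and Cyp4f39 mostly in the second week.

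Pnpla1, the transacylase that joins linoleate to the hydroxylated chain, was at 2.34, 4.2 and 4.15 CPM at day 1, 10.5, 11.5 and 11.5 at day 7, and 22.5, 21 and 20.2 at day 14. Its rise was 5.98-fold (edgeR adjusted p = 4.34e-07). Abhd5, a cofactor of Pnpla1 and of triacylglycerol lipase, had the highest TPM of this role and was at 49.3, 51.2 and 51.5 CPM, then 83.2, 82.3 and 85, then 156, 145 and 139. It rose 2.89-fold (edgeR adjusted p = 4.56e-11), with steps of 0.72 ± 0.05 and 0.81 ± 0.05. Slc27a4, which activates fatty acids with coenzyme A, changed least, from 34.8 ± 2.54 CPM to 44.1 ± 0.998 and 42.6 ± 0.637. Its rise in the first week passed (0.34 ± 0.06, edgeR adjusted p = 0.000285) and the second step was lower by 0.39 ± 0.10 (adjusted p = 0.00454).

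**Figure D4:**
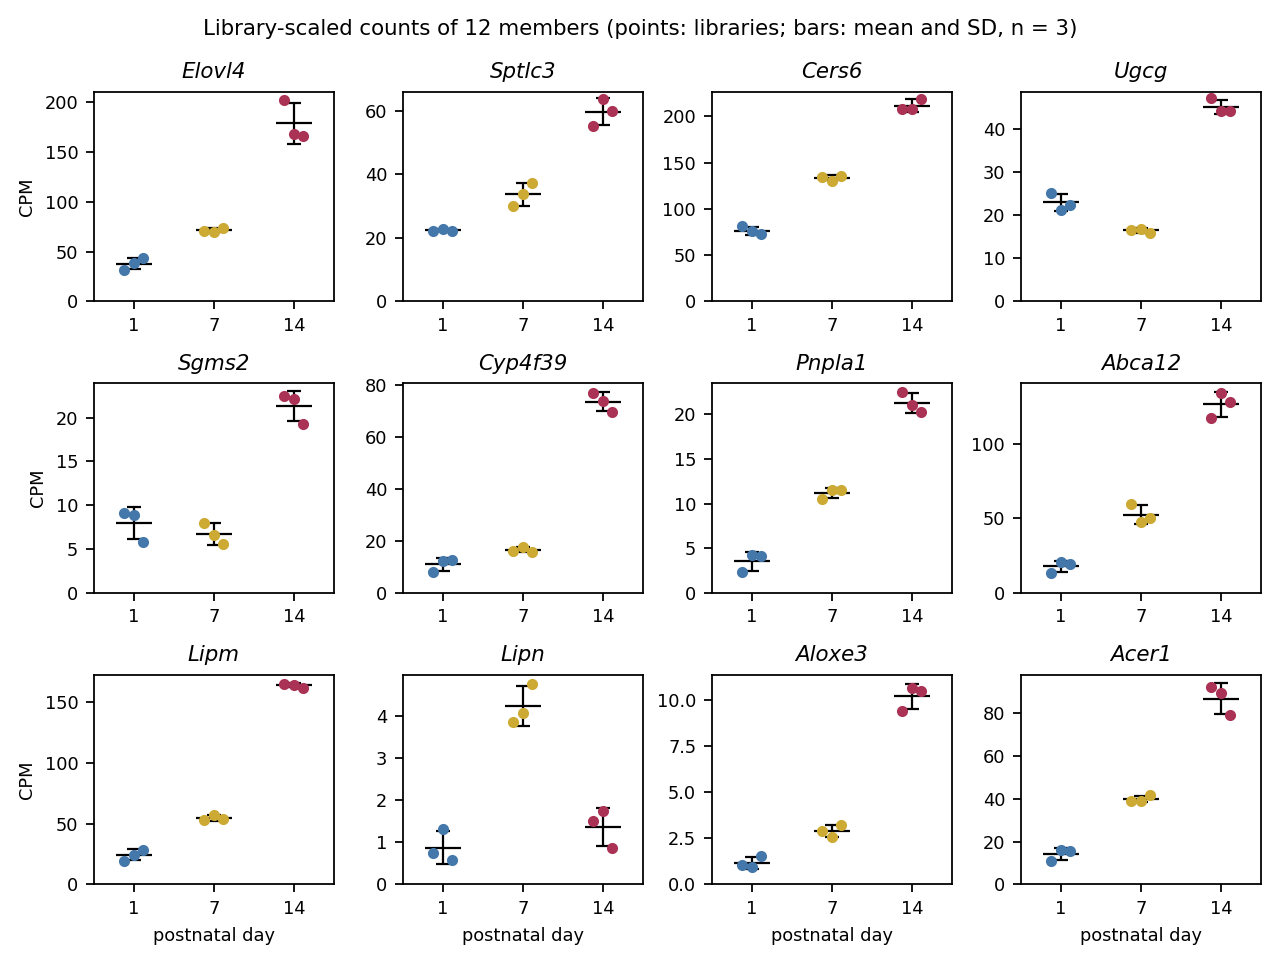
CPM of 12 barrier lipid genes in each library (points, coloured by day) with the mean and SD of 3 libraries (black bars), each panel with its own axis from 0. Lipm reaches 162 to 165 CPM at day 14 from 19.6 to 28.7 at day 1, Ugcg is lowest at day 7, and Lipn is highest at day 7.

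Lipk, Lipn and Lipm encode acid lipases of late epidermal differentiation and lie side by side on chromosome 19, with 19154 bases between the first pair and 14996 between the second. Although they are neighbours, their values were not alike. Lipm (34100943 to 34122687) was at 19.6, 24.4 and 28.7 CPM at day 1, 52.8, 56.9 and 54.2 at day 7, and 165, 164 and 162 at day 14. It rose 6.77-fold (edgeR adjusted p = 1.99e-08), and went from place 15 to place 3 among the 35 genes by TPM. Exons of Lipm share 1219 bases, 34.9% of the exon length over all its annotated transcripts, with Ankrd22 on the opposite strand, whose level went from 26.2 ± 2.45 CPM at day 1 to 29.7 ± 0.601 and 53.4 ± 3.01 at the later days. The strand setting of the counting is not given in the sources used here, so reads from this stretch cannot be told apart. Abhd5, Acer1 and Pnpla1 share 16%, 14.1% and 13.3% of that length with antisense or noncoding genes on the opposite strand, of which A730085K08Rik at Abhd5 had at most 36 counts in a library and the others were not analysed here.

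Lipn (34067058 to 34085946), in which defects cause a late-onset ichthyosis in people, turned at day 7. It was at 0.74, 1.32 and 0.57 CPM at day 1, 3.87, 4.08 and 4.78 at day 7, and 1.5, 1.73 and 0.856 at day 14. All day 7 libraries were above those of the other days, with a first step of 2.27 ± 0.32 and a second of -1.63 ± 0.31 on the log2 scale. The difference between the steps was -3.91 ± 0.51 (edgeR adjusted p = 6.61e-05). Lipk was scarce and was at 0.325, 0.386 and 0.179 CPM, then 0.711, 1.32 and 0.367, then 1.08, 0.811 and 1.07. It was higher at day 14 than at day 1 (1.72 ± 0.47, edgeR adjusted p = 0.00552). Its first-week call (adjusted p = 0.0246) did not survive leaving out library 4 or 6 of day 1, or library 2 of day 7 (adjusted p = 0.0501, 0.0888 and 0.157), its value of 1.43 ± 0.47 was 0.87 without day 7 library 2, and days 1 and 7 overlapped.

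The lipoxygenase steps oxidise the linoleate of acylceramides so that the envelope can bind them. All 4 genes rose over the 2 weeks, against 35.5% of all genes, with a median of 2.93. Their summed TPM was 5.34 ± 1.36 at day 1 and 33.8 ± 0.412 at day 14, low beside the 251 ± 7.16 of the acylceramide steps. Aloxe3, which isomerises the product of Alox12b, lies 7956 bases from it on chromosome 11. Aloxe3 was at 1.05, 0.917 and 1.51 CPM at day 1, 2.89, 2.54 and 3.21 at day 7, and 9.41, 10.7 and 10.5 at day 14, a rise of 8.78-fold (edgeR adjusted p = 1.04e-08). Alox12b, the first lipoxygenase of the pair, had 0 to 11 counts per library at day 1, 8 to 18 at day 7 and 123 to 152 at day 14. Its CPM was 0, 0.177 and 0.13, then 0.284, 0.13 and 0.309, then 2.66, 2.32 and 3.02. It rose in the second week (3.46 ± 0.56, edgeR adjusted p = 0.000186) and did not pass in the first, and the difference between weeks was not called (adjusted p = 0.112).

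Ephx3, an epoxide hydrolase placed after the lipoxygenases, had the highest TPM of this role and was at 2.31, 3.62 and 4.51 CPM, then 9.06, 7.48 and 7.21, then 23.6, 23.3 and 22.1. The rise was 6.63-fold (edgeR adjusted p = 9.26e-07). Sdr9c7, a dehydrogenase that gives the oxidised lipid its final reactive form, had the lowest TPM of the 35 genes at day 14. It was at 0.237, 0.209 and 0.0325 CPM at day 1, 0.158, 0.163 and 0.329 at day 7, and 0.979, 0.528 and 0.577 at day 14. Days 1 and 7 overlapped, and the second-week rise (1.69 ± 0.59, edgeR adjusted p = 0.0237) did not survive leaving out library 1 or 2 of day 7, or library 4 of day 14 (adjusted p = 0.082, 0.0822 and 0.105). The rise over both weeks was 4.28-fold and passed (adjusted p = 0.00739).

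The 3 genes grouped under ceramide breakdown, of which Smpd1 releases ceramide, went different ways. Acer1 (chromosome 17, 56953490 to 56982126), the alkaline ceramidase of differentiated epidermis, was at 11, 16.1 and 15.5 CPM at day 1, 39, 39.2 and 41.7 at day 7, and 92.5, 89.3 and 79.1 at day 14. It rose 6.13-fold (edgeR adjusted p = 1.56e-07) and moved from place 21 to place 7 by TPM. Asah1, the lysosomal acid ceramidase, fell from 92.4, 74.9 and 84.8 CPM to 66.8, 70.1 and 71.9 at day 7 and 64.1, 59.4 and 63.7 at day 14. The change was -0.27 ± 0.07 in the first week and -0.43 ± 0.07 over both (edgeR adjusted p = 0.00586 and 0.000108). By TPM, Asah1 was the more abundant of the pair at day 1 (86.8 ± 10.2 against 16.7 ± 3.05) and Acer1 at day 14 (86.9 ± 6.41 against 54.6 ± 1.93). Smpd1, the acid sphingomyelinase that releases ceramide from sphingomyelin, went from 29.3 ± 2.4 CPM to 35.4 ± 1.94 in the first week (0.27 ± 0.07, edgeR adjusted p = 0.00485) and was at 35.7 ± 0.702 at day 14.

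On the TPM scale, the 35 genes together took 1444 ± 7.91 at day 1, 1616 ± 29.3 at day 7 and 2092 ± 27.1 at day 14, with no overlap between days. TPM carries no TMM scaling, so its changes between days can differ from the tested fold changes. In CPM, the same genes summed to 1265 to 1287, 1667 to 1672 and 2365 to 2451. Within the TPM sum, the acylceramide steps went from 90.3 ± 5.33 to 251 ± 7.16 and the acid lipases from 27.6 ± 4.16 to 150.0 ± 1.66. The elongation genes, led by Tecr, held the largest part at each day, 689 ± 23.2 at day 1 and 853 ± 12.4 at day 14. Among the member elongases alone (Elovl1, Elovl4, Elovl6 and Elovl7), the share of Elovl4 grew from 21.2% ± 2.48 to 40.8% ± 2.27. That of Elovl6 shrank from 14.5% ± 1.04 to 6.4% ± 0.451.

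Genes of the same pathways outside the 35 moved less uniformly. Of 32 other sphingolipid genes, 29 passed the filter, and between days 1 and 14, 15 rose and 7 fell, with a median of 0.27. Over all genes tested, 35.5% rose and 38.4% fell between those days. Sphk1, which phosphorylates sphingosine, rose by 2.27 ± 0.10 on the log2 scale, and Sgpp1, which removes that phosphate, by 1.85 ± 0.08 (edgeR adjusted p = 7.6e-10 and 4.86e-10). Ormdl3, an inhibitor of serine palmitoyltransferase, rose by 1.17 ± 0.07 (adjusted p = 1.54e-08), from 97.9 ± 6.54 to 220 ± 21.5 CPM. The elongase Elovl3 fell by 1.83 (-1.83 ± 0.56, adjusted p = 0.0102) but averaged under 1 CPM at each day. Of 20 further genes of barrier lipid supply, all were tested, 13 rose and 7 fell, with a median of 0.82. Dgat2 and Pnpla2, which make and break triacylglycerol, rose by 2.67 ± 0.17 and 2.21 ± 0.06 (adjusted p = 4.92e-07 and 1.91e-11). Pnpla2, which Abhd5 activates, rose mostly in the second week, and its step difference passed (1.73 ± 0.11, adjusted p = 2.8e-07). The desaturases Scd2 and Fads1 fell by 2.63 and 2.58 (adjusted p = 0.000138 and 7.72e-06), Fads1 from 10.5 ± 1.18 CPM at day 1 to 1.91 ± 0.674 at day 7. Another desaturase, Scd1, named here after its values were seen, averaged 53.5, 68.4 and 223 CPM at days 1, 7 and 14. Of the 10 listed genes of fatty acid desaturation and activation, 6 rose and 4 fell over the 2 weeks.

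Markers of layers and other cells moved across the same days, and their part in the changes above was not tested. Between days 1 and 14, 35.5% of all genes rose and 38.4% fell, beside which the counts below stand. The granular layer is where lamellar granules form, and of its 11 markers 9 rose and 1 fell between days 1 and 14. Their median over the 2 weeks was 1.7 on the log2 scale. At least a 2-fold rise was called for 8 and a 2-fold fall for 1, against 14.6% and 14.3% of all genes. In the second week 6 rose and 3 fell, against 32.5% and 35.1% of all genes, with a median of 0.69 on the log2 scale. The summed TPM of these granular markers was 460 to 618 at day 1, 774 to 851 at day 7 and 372 to 458 at day 14. In CPM, the TMM-scaled level, the same sum was 331 to 436, 938 to 994 and 362 to 433. Tgm3, a transglutaminase named here after its values were seen, took the largest part of that sum at day 7 and was at 131, 670 and 115 CPM on average. The 6 spinous markers summed to 14295 to 20012 TPM at day 1, 15585 to 16800 at day 7 and 14257 to 15901 at day 14. Of these markers, 4 rose and 1 fell over the 2 weeks, with a median of 0.42. The one that fell was Krt1 (-0.97 ± 0.13, edgeR adjusted p = 0.000255), and Krt10 did not pass (0.32 ± 0.17, adjusted p = 0.126). Of 6 basal markers, 3 rose and 2 fell, with a median of 0.34. Those that fell were Krt5 and Krt14 (-0.50 ± 0.05 and -0.85 ± 0.05, edgeR adjusted p = 1.17e-06 and 8.05e-09), and the summed TPM of the list was 60019 to 62839 at day 1 and 40818 to 46238 at day 14.

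Melanocyte markers fell for 6 of 6 genes, from 436 to 479 summed TPM at day 1 to 4.69 to 9.23 at day 14. Over all genes, 38.4% fell and 35.5% rose between those days. Of 8 fibroblast markers, 3 fell and 1 rose, and they summed to 152 to 266 TPM at day 1 and 62.4 to 69.2 at day 14, and leukocyte markers, of which 6 of the 6 tested rose, to 12.9 to 16.6 and 49.9 to 54.9. The 8 adipocyte markers summed to at most 12.5 TPM, with 7 of 8 at 10 counts or fewer in every library. Of the 9 sebocyte markers 6 were tested, and of those 1 rose and 3 fell between days 1 and 14. The 9 summed to 435 to 629 TPM at day 1, 1021 to 1472 at day 7 and 776 to 1185 at day 14. Krt79 gave nearly all of that sum, Awat1 and Dgat2l6 were at 0 in all day 14 libraries, and Awat2 averaged 1.08, 1.32 and 0.593 CPM.

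Promoter composition was the other feature compared, which the choice of genes did not use. The RefSeq promoters used here cover 31 of the 35 members; Lipk, Asah1, Fa2h and Aloxe3 were not analysed. In the 250 bases before the first listed start, the 31 held a median of 11 CpG dinucleotides and all 27025 genes with a RefSeq promoter entry a median of 6. The 15 members that rose at least 2-fold by day 14 had a median of 7, and the 16 others 16.5. Among the 15 is Degs2, with 18, which passed the filter on low counts only through day 14. At most 5 CpG dinucleotides were found in 7 of the 15, in 1 of the 16 (Lipn, itself highest at day 7) and in 49.5% of all promoters. The stretches of Sptlc3, Sgms2, Abca12 and Acer1 printed above belong to the CpG-poor group, and those of Sptlc2 and Elovl4 do not. Elovl4, Cers6 and Abhd5, with 22 to 25 CpG dinucleotides, also rose at least 2-fold, so the counts of the groups overlap.

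**Figure D5:**
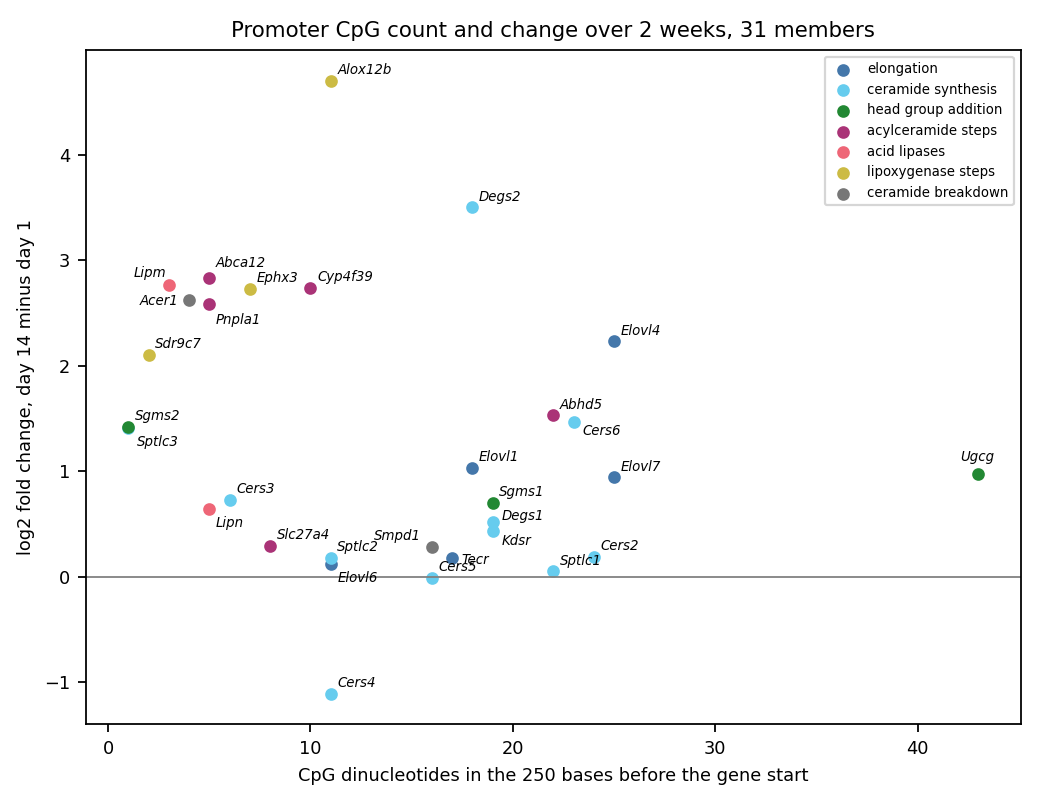
Number of CpG dinucleotides in the 250 bases before the gene start (horizontal axis) against the log2 fold change from day 1 to day 14 (vertical axis) for the 31 genes with a promoter entry, coloured by role. The genes with at most 5 CpG dinucleotides lie at the left with changes of 0.64 to 2.83, and those with over 15 range from -0.01 to 3.50. The value of 3.50 is that of Degs2, which passed the filter on low counts only through day 14.

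Short sequence motifs were searched on both strands of the same 250 bases, where N is any base. The GC box GGGCGG was present in 6 of the 15 members that rose at least 2-fold, in 12 of the 16 others and in 32.9% of all promoters. That motif holds a CpG dinucleotide, so both counts use some of the same letters. CCAAT was in 10 of 31 members and 34.5% of all promoters, and TATAAA in 1 (Sdr9c7) and 13%. The AP-1 motif TGANTCA was in 1 (Lipn) and 6.87%, the C/EBP motif TTGCNNAA in 3 (Tecr, Sptlc3 and Ephx3) and 9.55%, and the E-box CACGTG in 3 (Cers2, Cers6 and Degs1) and 6.05%. The Grainyhead motif AACCNGTT was in no member and 1.71% of all promoters. These matches describe letters and not binding.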

How the data were processed

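Per the labels' protocols, RNA of sorted skin cells was made into stranded mRNA libraries and sequenced. The submitters' processing notes name StringTie 1.3.4d, HISAT2 2.1.0, Trimmomatic and bcl2fastq 2.20.0, with mm10, and neither the counting step nor its strand setting is given in the sources used here. The authors deposited 1 table of unnormalised read counts for each gene, per the file headers. Another 18 columns of TPM and FPKM were not used, because headers show only the day of a column and not its sample. Day 1 reads D0 in the headers and was assigned because the other days have headers of their own. Headers of day 7 read KLRNA where those of the other days read KL, and the reason is not given. A turn at day 7 cannot be told apart from whatever that difference marks. Libraries are called by their header numbers (4, 5, 6 for day 1 and for day 14; 1, 2, 3 for day 7), which cannot be matched to the titles' numbers.

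Under R 4.3.3, edgeR 4.0.16 filtered counts with filterByExpr, scaled them with TMM and fitted 1 robust quasi-likelihood model over 9 libraries with day as a factor, after tests on simulated data. P-values were adjusted over 14507 genes. Fold changes on the count scale carry the SE of the fit, and levels the SD over 3 libraries. Library totals of 50670191 to 62970768 set the counting precision. For levels between genes, TPM was computed from the counts and the exon lengths of GENCODE M21 basic transcripts (GRCm38), matched for 24166 genes, in place of the deposited TPM the design had named. Alternatives were RLE factors, library totals alone, TMM without the 50 most abundant genes, DESeq2 1.42.0, limma-voom (limma 3.58.1), 2 other filters, fits on the 2 days compared, a test against a fold of 1.5, and leaving out each library. The members, lists and tests were chosen with earlier results of these data known. Library values are printed for members called with an absolute log2 change of at least 1 in any comparison and for the member of highest TPM in each role. From the other lists, up to 4 called members with the largest changes between days 1 and 14 are named, and Scd1 besides. Flg and Sts, listed among markers and barrier lipid genes, were not analysed here.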

Additional observations from a re-analysis of the deposited data

How the results depend on the processing

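No paired analysis was possible because the columns carry library numbers that cannot be matched to the replicate numbers of the titles. The planned fits on deposited TPM were not run, since those columns were not used. Over the other alternatives, 1937 values of single members kept direction and side of the threshold, 97 lost a call, 29 gained one and 21 changed sign. Step differences entered this tally only for members whose difference passed in the main fit. Calls that other members gained in that test are therefore not in it. In each sentence below the cause was not tested unless the setting names it.

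Against a fold of 1.5, which asks for larger changes, the counts were 10 higher and 0 lower in the first week, 14 higher in the second, 0 lower over both, and 3 more positive and 3 more negative second steps. With library totals alone, 8 members fell in the second week and 5 over both. With only the 2 days compared, 5 fell in the second week. DESeq2 gave 8 more positive second steps. Leaving out 1 library gave 3 to 5 falls in the second week (5 without day 1 library 4 or 5 or day 7 library 1), 4 to 8 more positive second steps (8 without day 1 library 4) and 5 to 9 more negative.

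Signs turned for small values. With library totals alone, the first week gave -0.0098 for Tecr and -0.05 for Sptlc2. The second week gave -0.08 for Tecr, -0.04 for Sptlc2, -0.11 for Cers5, -0.07 for Degs1 and -0.16 for Smpd1. Both weeks together gave -0.16 for Elovl6, -0.09 for Tecr, -0.22 for Sptlc1, -0.09 for Sptlc2 and -0.08 for Cers2. Smpd1 was at -0.0034 in the second week without a filter. Cers5 was at 0.0095 over both weeks with RLE factors and 0.0093 with DESeq2. Leaving out 1 library gave ranges across 0 from -0.06 (without day 1 library 6) to 0.81 for Sdr9c7 in the first week, and from -0.05 (without day 7 library 3) to 0.85 for Lipk and from -0.04 (without day 7 library 1) to 0.04 for Smpd1 in the second. Over both weeks they ran from -0.01 (without day 1 library 5) to 0.09 for Sptlc1 and from -0.04 to 0.0091 (without day 1 library 4) for Cers5. Depth limits Degs2, Alox12b, Lipk and Sdr9c7, each with under 20 counts in at least 1 library.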
